A study of Bos taurus with 12 samples.

Results

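The telomere-side ends of the bovine autosomes were defined as the last 1 Mb before the final tested CpG position of each chromosome. Every tested position within 1000000 bp of the highest position of its autosome was taken, with no use of its methylation. The rule gave 29 ends with 31147 of the 838705 tested positions. The remaining 785335 autosomal positions, called the rest, served as the comparison, and the 1 Mb next to each end (25264 positions) and the first 1 Mb of each autosome, its centromere side (15416 positions), were set beside the ends as nearer comparisons. Both of these lie within the rest.

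DNA methylation was measured by reduced representation bisulfite sequencing (RRBS), which sequences fragments between restriction sites and so samples CpG-rich DNA. The sample labels name MspI, which cuts at CCGG, and the methods also name a prior digest with TaqαI, so the sources differ on the enzymes that set which CpGs could be tested. The DNA came from untreated primary dermal fibroblasts at passage 6, grown from skin of 6 Holstein heifers, each sampled at 5 months of age (young, cultures 1A to 6A) and again at 16 months (old, cultures 1B to 6B). All cultures had been revived from cryopreserved stocks, and the heifers had been chosen for an intermediate response of their cells to lipopolysaccharide, so they stand for part of a herd only. There was 1 culture per animal and age, so age, biopsy and culture cannot be told apart, and gene expression was not analysed here, so the cell type could not be checked against its markers. Summed coverage over the tested positions ranged from 19007741 to 31643295 per culture, with a read counted at each position that it covered.

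Cattle autosomes are acrocentric: the centromere lies at the start of the sequence and the long arm runs to a single telomere-side end. Telomeres themselves are repeats that unique alignment leaves out, so the tested positions lie in the DNA before them. In mammals, DNA near chromosome ends is often rich in genes, GC and recombination, and CpGs in dense islands are mostly unmethylated, whereas isolated CpGs are mostly methylated. Fibroblasts lose methylation at many partly methylated sites as they age or divide.

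Tested CpGs were packed closely in the ends. With both strands merged, the ends held 23652 tested CpGs, or 816 per Mb, against 233 per Mb in the rest, a ratio of 3.49. The next 1 Mb held 664 per Mb and the centromere side 400 per Mb. The ends therefore held 3.92% of the tested autosomal CpGs in 1.16% of the tested span. Away from the end the density was 575 per Mb at 2 to 3 Mb and 309 per Mb at 5 to 6 Mb, higher again at 7 to 8 Mb with 507 per Mb, and 234 per Mb at 19 to 20 Mb, so the fall was not steady. These numbers count CpGs that had at least 5 reads in every culture, not all CpGs of the genome.

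The ends held more covered stretches, and each held slightly fewer CpGs. Stretches of tested CpGs at most 50 bp apart occurred at 201 per Mb in the ends and 48.2 per Mb in the rest, while a stretch held 4.05 CpGs in the ends and 4.84 in the rest. Within 100 bp of a tested position, its own CpG included, lay a median of 8 tested CpGs in the ends and 9 in the rest.

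The density differed widely among the 29 ends. The end was denser than the rest of its chromosome in 25 of 29 autosomes, with a median ratio of 2.97. It was the densest 1 Mb window of its chromosome on chr17, chr20, chr21 and chr26, and was among the first 5 windows on 16 chromosomes. The chr17 end (chr17:74150215-75150215 in bosTau8) held 2305 tested CpGs, 10.98 times the density of the rest of chr17. The ends of chr12 and chr20 followed with ratios of 7.32 and 7.30. The 4 sparser ends were those of chr1 (ratio 0.605), chr13 (0.566), chr7 (0.545) and chr27 (0.230), and the chr27 end held only 65 tested CpGs. In 22 of 29 chromosomes the end held more tested CpGs than the centromere side.

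**Figure D1:**
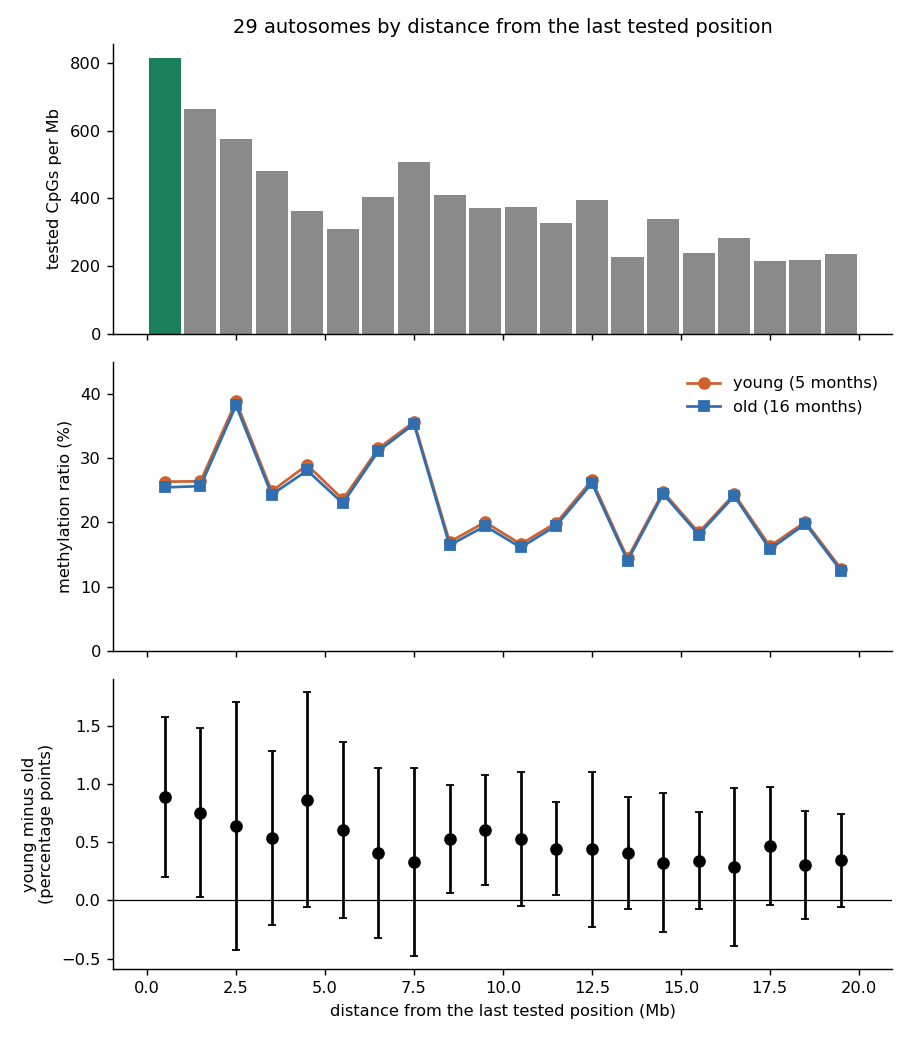
Tested CpGs per Mb (top), mean methylation ratio in percent for young and old cultures (middle) and the young minus old difference in percentage points (bottom; mean and SD of 6 animals) in 1 Mb steps from the last tested position of the 29 autosomes. Density is highest in the end (816 per Mb) and the difference is 0.884 points there and 0.344 points at 19 to 20 Mb, with SDs that overlap.

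The mean methylation of the ends was close to that of the next 1 Mb but far below that of the centromere side. The methylation ratio is the share of reads that kept a C at a position. It averaged 25.9% over the end positions, 23.5% over the rest, 26.0% over the next 1 Mb and 44.0% over the centromere side. At 2 to 3 Mb from the last tested position it averaged 38.5%. In young cultures the mean of the ends was lowest at 25.6%, with a median of 26.1% and a highest value of 27.3%. Among old cultures the corresponding values were 25.1%, 25.5% and 25.8%. The rest gave 23.7% ± 0.522 for young and 23.2% ± 0.437 for old cultures (mean and SD, n = 6 each). In each of the 12 cultures the ends lay above the rest.

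Averaged over both ages, the ends exceeded the rest by 2.44 ± 0.352 percentage points (SD, n = 6 animals), and in 6 of 6 animals (exact sign-flip permutation test, two-sided, P = 0.031, the smallest value that 6 pairs allow). Adjusted over the 10 comparisons of this kind, P was 0.078. The difference from the next 1 Mb was -0.126 ± 0.171 points (exact P = 0.156). That from the centromere side was -18.1 ± 0.603 points, lower in 6 of 6 animals (exact P = 0.031, adjusted over 10 comparisons 0.078).

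The direction of the difference from the rest turned with the coverage and with the weighting of positions. Among positions with at least 10 reads in every culture, 6866 in the ends (22.04%) and 258241 in the rest (32.9%), the mean ratio was 17.6% in the ends (cultures from 17.01% to 18.8%) and 33.1% in the rest (32.1% to 34.5%). With reads pooled over positions, the ends stood at 38.8% and the rest at 44.2%. Median coverage was 12.9 reads in the ends, 14.2 in the rest and 18 on the centromere side, where 5.23% of positions lay above 200 reads. By mean coverage, the ends were more methylated than the rest below 8 reads (46.2% and 33.1%), from 8 to 12 reads (26.3% and 15.9%) and from 12 to 20 reads (27.9% and 19.4%). They were less methylated from 20 to 40 reads (9.02% and 20.8%) and from 40 to 200 reads (59.8% and 65.9%). Above 200 reads the ends were again the higher, with 75.4% at 257 positions against 63.9% in the rest, a difference given without a test. Each of the 5 differences up to 200 reads had 1 direction in 6 of 6 animals (exact permutation P = 0.031, adjusted over 5 classes 0.031). What sets the coverage of a position was not tested, and no common level of the ends above or below the rest holds across coverages.

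Local CpG density parted the positions in the same manner. Positions alone within 100 bp averaged 66.6% in the ends and 57.8% in the rest, those with 2 to 3 tested CpGs 59.1% and 48.0%, and those with 4 to 5 tested CpGs 40.9% and 31.3%. From 6 to 9 CpGs the order turned, with 19.9% in the ends and 24.4% in the rest. At 10 to 14 CpGs the ends averaged 7.70% and the rest 19.7%. At 15 to 21 CpGs the values were 3.55% and 6.26%, and at 22 or more they were 1.68% and 1.96%. The ends were higher in the 3 sparse classes and lower in the 4 dense classes in 6 of 6 animals (exact permutation P = 0.031 in each, adjusted over 7 classes 0.031). With the classes weighted as in the ends, the ends and the rest differed by -0.212 ± 0.293 points (exact P = 0.188). Unmethylated dense CpGs and methylated sparse CpGs thus stood further apart in the ends than in the rest.

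**Figure D2:**
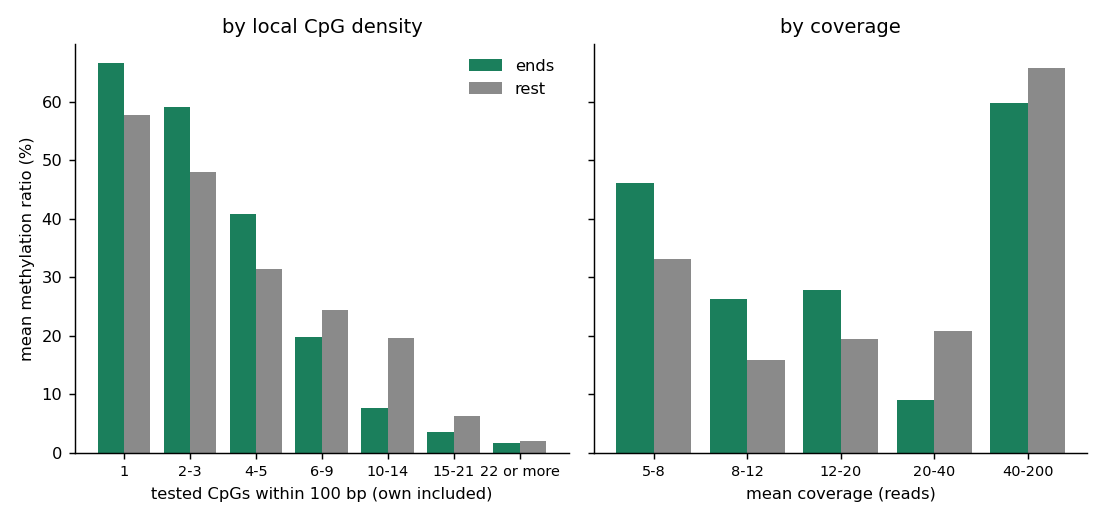
Mean methylation ratio in percent of end positions and of the rest, by number of tested CpGs within 100 bp (left) and by mean coverage in reads, each class including its lower and not its upper bound (right). The ends are above the rest in the 3 sparsest density classes and the 3 lowest coverage classes and below it in the other classes drawn, which stop at 200 reads.

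The shape of the distribution also differed. In the ends 59.2% of positions had a mean ratio below 10% and 7.89% had one above 90%, against 63.9% and 4.58% in the rest. A mean coverage above 200 reads was seen at 257 end positions (0.825%) and at 1.88% of the rest. Of these 257 positions 161 lay in the chr11 end, where their mean ratio was 77.1% and the highest mean coverage was 3183 reads, and 35 lay in the chr4 end, with a mean ratio of 79.5%. Without these positions the ends exceeded the rest by 2.80 points.

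The ends ranged from 12.6% to 44.3% in mean methylation. The 5 most methylated were those of chr6 (44.3%), chr4 (44.2%), chr11 (36.1%), chr5 (33.8%) and chr15 (33.5%). The 5 least methylated were those of chr18 (12.6%), chr28 (14.6%), chr29 (15.7%), chr17 (19.4%) and chr25 (20.1%). In the chr18 end 82.7% of positions had a mean ratio below 10%, and in the chr6 end 30.9% had one. The first neighbours in this order, chr6 and chr4, differed by less than the SD of their cultures (1.90 points for young cultures in the chr6 end), whereas the step from chr4 to chr11 was larger than the SDs of both (at most 1.01 points).

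Set against its own chromosome, the end was more methylated in 21 of 29 autosomes and in 12 of 12 cultures in 20 of these. The largest excess was on chr11, with 36.1% in the end and 20.5% in the rest, followed by chr5 (33.8% and 18.7%) and chr19 (32.04% and 17.4%). The end was less methylated in 8 chromosomes, and in 12 of 12 cultures in 6 of them: chr8, chr18, chr25, chr27, chr28 and chr29. The largest deficit was on chr28, with 14.6% in the end and 32.7% in the rest. Without the positions above 200 reads the chr11 end averaged 32.5% and the rest of chr11 19.9%.

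**Figure D3:**
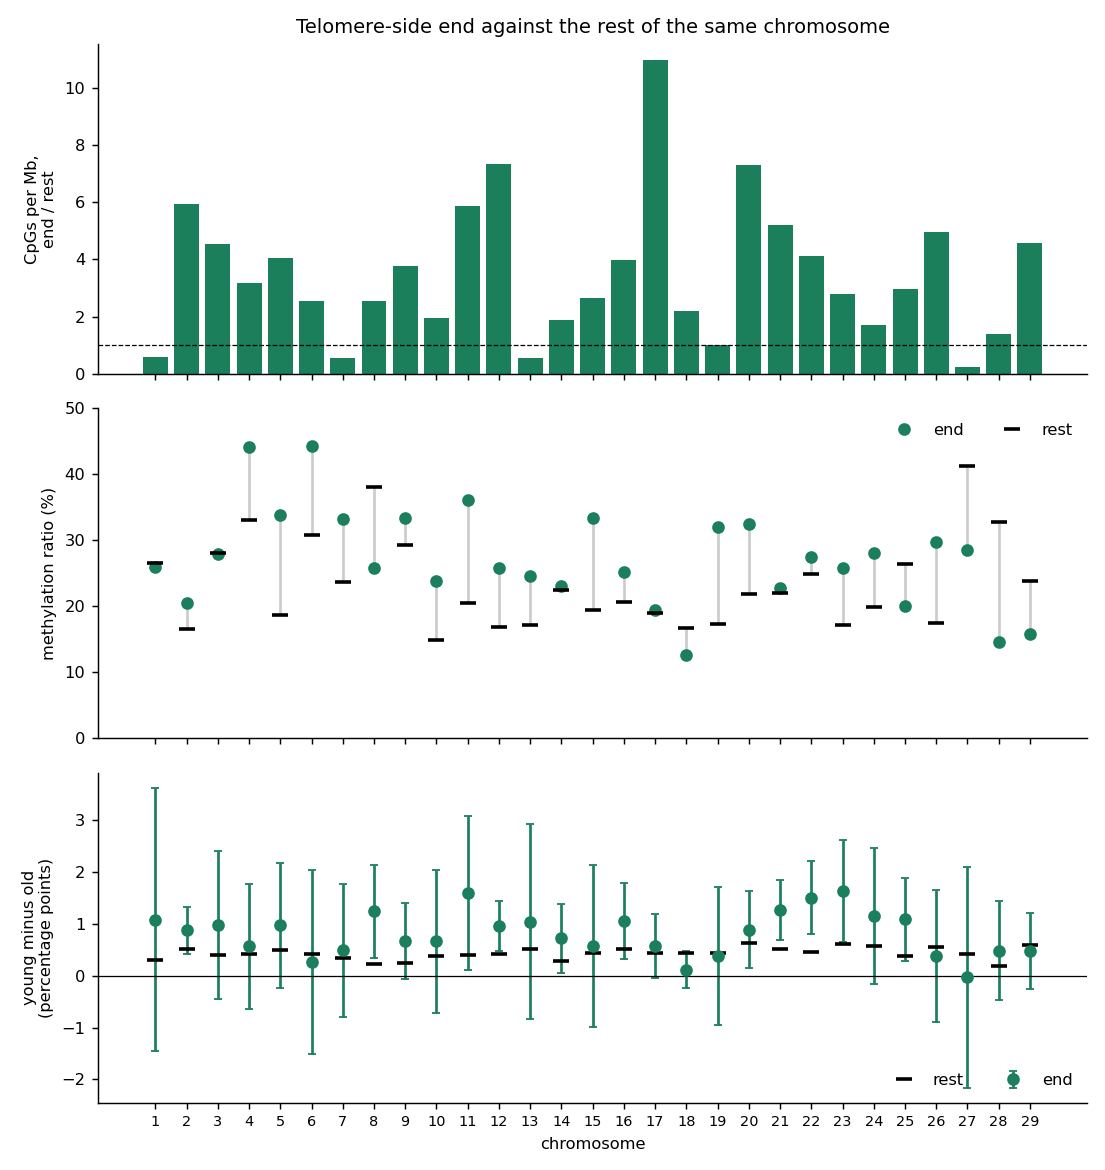
Ratio of tested CpGs per Mb in the end to that in the rest (top; the dashed line marks equal density), mean methylation ratio in percent of end and rest (middle) and young minus old difference in percentage points (bottom; mean and SD of 6 animals for the end, mean for the rest) for the 29 autosomes. Of the ends, 25 are denser than the rest, 21 are more methylated and 28 have a positive difference.

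The second question was whether the ends differed between the ages. The mean ratio of the ends was higher in the young culture than in the old culture of every animal. The young minus old difference was 0.228, 1.82, 0.530, 1.52, 0.186 and 1.01 points in animals 1 to 6, with a mean of 0.884 ± 0.686 points (SD, n = 6; exact sign-flip permutation P = 0.031, adjusted over 10 comparisons 0.078). The culture means of the 2 ages overlapped, since young cultures 3A (25.6%) and 1A (25.7%) lay below the highest old culture, 5B (25.8%). Animals 1 and 5 had the smallest differences, and animals 2 and 4 the largest. Median coverage of end positions was 12 to 14 reads in young cultures and 10 to 16 reads in old cultures, and its part in the difference was not tested.

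Over the rest the difference was 0.422 ± 0.562 points, positive in 4 of 6 animals (exact P = 0.156). The next 1 Mb gave 0.754 ± 0.722 points in 5 of 6 animals (exact P = 0.0625), and the centromere side 0.408 ± 0.965 points in 4 of 6 animals (exact P = 0.344). The difference in the ends exceeded that in the rest by 0.462 ± 0.323 points, in 6 of 6 animals (exact P = 0.031, adjusted over 10 comparisons 0.078). In animal 6 this excess was only 0.0270 points. The excess over the next 1 Mb was 0.1302 ± 0.125 points (exact P = 0.0625) and that over the centromere side 0.476 ± 0.6996 points (exact P = 0.156). Among positions with at least 10 reads in every culture the ends again had the higher young mean, by 0.743 ± 0.602 points in 6 of 6 animals (exact P = 0.031), while the excess over the rest was 0.484 ± 0.507 points (exact P = 0.125).

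**Figure D4:**
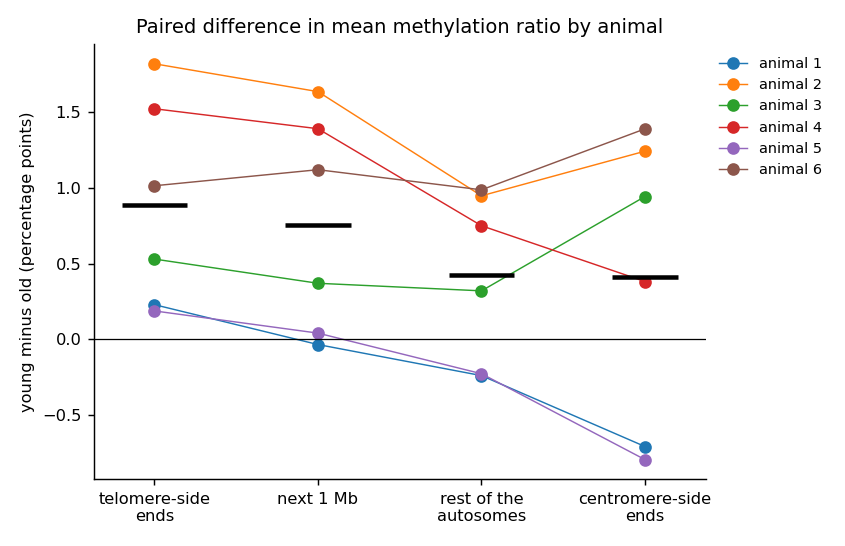
Young minus old difference in mean methylation ratio, in percentage points, for each of 6 animals (points joined by lines) in the telomere-side ends, the next 1 Mb, the rest of the autosomes and the centromere-side ends; black bars are means. All 6 animals are above 0 in the ends, and 4 of 6 are in the rest.

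The young excess was spread over chromosomes. It was positive in 28 of 29 ends, with a median of 0.876 points, and also in all 29 rests, with a median of 0.437 points. The end exceeded its own rest in 23 of 29 chromosomes. The largest differences were in the ends of chr23 (1.64 ± 0.983 points, SD over 6 animals), chr11 (1.59 ± 1.48), chr22 (1.51 ± 0.709), chr21 (1.27 ± 0.582) and chr8 (1.24 ± 0.896). The chr27 end, with 95 positions, gave -0.0281 ± 2.13 points.

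In 10 ends all 6 animals had the higher value in young: chr2, chr8, chr11, chr12, chr16, chr20, chr21, chr22, chr23 and chr25. This held for 12.1% of all 1986 autosomal 1 Mb windows with at least 50 positions. The ends held more positions than a usual window, with a median of 1041 against 253. Among the 477 windows with at least 500 positions, a limit chosen after the values were seen, the share was 19.9%, and the 23 ends of that size included all 10. In the chr22 end, for example, young cultures ranged from 27.0% to 28.99% with a median of 28.3%, and old cultures from 25.9% to 27.6% with a median of 26.6%, so the ages overlapped although every animal was higher in young.

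With limma, the animal as a block and Benjamini-Hochberg adjustment over the 1986 windows, 33 windows (1.66%) had an adjusted P below 0.05, and 0 of the 29 ends did. The smallest adjusted values among the ends were 0.0547 for chr22, 0.0639 for chr21 and 0.0675 for chr23. An unadjusted limma P below 0.05 was found in 12 of the 29 ends. The share was 18.7% among all windows and 23.9% among those with at least 500 positions. No end can therefore be named as changed between the ages by itself.

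At single positions, a site was called differentially methylated at an unadjusted P below 0.05 in the paired test of the methods and a mean difference of at least 10 percentage points. Of the end positions 815 were called, or 2.62% (95% Wilson interval 2.45% to 2.80%, counting error only), against 1.62% of the rest and 1.68% of all tested positions. Higher methylation in young was found at 599 of them (1.92% of end positions, against 1.07% in the rest and 1.12% of all positions). Higher methylation in old was found at 216 (0.693%, against 0.543% in the rest and 0.567% of all positions). The young share of the calls was 73.5% (70.4% to 76.4%) in the ends and 66.4% (65.6% to 67.2%) in the rest. All such intervals of shares take positions as independent, while many calls are neighbours and all come from the same 6 animals. After Benjamini-Hochberg adjustment over all positions 0 end positions had a value below 0.05 (smallest 0.470), as did 0% of all positions, and at an unadjusted P below 0.05 with no minimum difference 1095 were found. With limma and with the quasi-binomial model 0 also passed the adjustment, and 1309 and 1149 had an unadjusted P below 0.05. Of the 815 calls, 325 had 1 direction in all 6 animals, and the share among all calls was 42.9%.

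The called share varied with the methylation, local density and coverage of positions. Calls were most frequent at intermediate methylation: 9.69% of end positions with a mean ratio of 30% to 50% were called, against 6.53% in the rest, and 7.71% against 4.22% from 50% to 70%. With the rest weighted to the methylation classes of the ends, its called share was 1.82%, and with local density classes it was 1.99%. Weighted by methylation and coverage class together it was 2.40%, below the 2.62% of the ends (interval 2.45% to 2.80%, counting error only). The methylation classes rest on the same ratios that gave the calls. By coverage alone, 5.70% of end positions below 8 reads were called and 3.49% of such positions in the rest, but from 40 to 200 reads the shares were 0.5% and 0.462%. The part of coverage in the excess of calls was not tested further.

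Called shares were of similar size on both sides of the 1 Mb border. The called share was 2.62% in the ends, 2.55% at 1 to 2 Mb, 2.78% at 2 to 3 Mb, 2.43% at 3 to 5 Mb, 1.94% at 5 to 10 Mb, 1.64% at 10 to 20 Mb and 1.42% beyond 20 Mb. Of the 29 ends, 26 had a called share above that of their own rest, from 1.23% in the chr18 end to 5.26% in the chr27 end. In 28 ends more positions were called as higher in young than as higher in old, and the chr13 end had 1 and 3 calls.

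The opposite strand of the same CpG gives a second reading from other reads. Of the called end positions 315 had a tested partner on the other strand, and 244 of the partners (77.5%, 72.5% to 81.7%) moved in the same direction, against 70.7% in the rest. The mean difference in the called direction was 21.2 points at the called positions and 9.37 points at their partners. Even read numbers throughout the 12 cultures were found at 21.1% of end positions and 14.5% of the rest and the authors counted overlapping mates as 2 reads, so coverage can exceed the number of molecules.

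Called positions were often neighbours. Linked at 100 bp, the 815 calls formed 601 loci, of which 116 held several calls, and 88.8% of these had 1 direction. The share was similar in the rest, with 87.8% of the 1741 loci that held several calls, among 9881 loci. Loci with at least 4 calls in 1 direction numbered 22, all higher in young, against 191 higher in young and 30 higher in old in the rest. Since the calls chose these loci, their values are given as a description. The following means are over all tested positions of a locus.

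The locus with most calls lay in a CpG island of the chr22 end (chr22:61314617-61314692). It held 11 called positions of 22 tested, and all 22 were higher in young. Young cultures lay between 17.6% and 56.5% and old cultures between 5.41% and 22.5%, with means of 37.1% ± 13.4 and 10.7% ± 6.87 (SD, n = 6 each), so the ages overlapped although each animal was lower in old. A CpG island locus in the chr25 end (chr25:42104787-42104877, 9 calls of 18 positions) went from 25.9% ± 8.51 in young to 6.90% ± 5.38 in old cultures. In the chr11 end (chr11:107077306-107077430, 8 calls of 16 positions) the means were 31.8% ± 14.1 and 10.8% ± 6.26. These loci were little methylated in old cultures and partly methylated in young ones.

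The chr21 locus (chr21:71250406-71250475, 7 calls of 12 positions) parted the ages without overlap, with young cultures from 18.4% to 38.8% and old cultures from 4.33% to 11.8%. So did a locus of 6 calls in a CpG island of the chr3 end (chr3:120929056-120929125), where young cultures lay between 18.4% and 57.1% and old cultures between 3.43% and 13.1%. None of these 5 loci was annotated to a gene in the list of the authors.

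The remaining named locus lay in an intron of PPP1R7, which encodes a regulatory subunit of protein phosphatase 1, also in the chr3 end (chr3:120858637-120858816). All 6 tested positions were called. The means were 75.9% ± 8.08 in young and 35.3% ± 15.6 in old cultures, and the lowest young culture (65.3%) lay above the highest old culture (58.3%). PPP1R7 had 9 called positions in all, each higher in young.

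Annotation of called sites was taken from the list of the authors, which held 804 of the 815. Of these, 40.3% (37.0% to 43.7%, counting error only) lay in CpG islands, against 23.8% (23.0% to 24.5%) of the calls in the rest. Promoters held 4.10% against 7.48%, exons 3.61% against 7.56% and introns 15.5% against 21.2%. Any gene class was given for 20.6% of the end calls and 32.03% of the others. Positions that were not called have no annotation in the list, so these shares could not be set against all tested positions. The end calls lay in 85 genes, and 15 calls were assigned to more than 1 gene. Of the 85 genes, 49 had calls higher in young only, 21 in old only and 15 in both directions. Calls higher in young thus lay in 64 of the 85 genes and calls higher in old in 36. In the rest they lay in 1505 and 887 of 2084 genes, which are similar shares.

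Named sites had at least 10 reads in every culture, 1 direction in all 6 animals and a gene annotation. Only 7 of the 815 calls met this, 5 higher in young and 2 higher in old, and with 1 site per gene 6 are named. The largest difference was in the PPP1R7 intron (chr3:120858816), at a position of the PPP1R7 locus described above. Young cultures had a lowest value of 50%, a median of 73.5% and a highest of 90%, and old cultures 0%, 18.5% and 33%. The ages did not overlap, and the mean difference was 55.2 ± 8.82 points (SD, n = 6; adjusted P 0.889 over all positions by the paired test of the methods). Since 1 direction in all 6 animals was a condition for naming a site, an exact test of its sign has a fixed result and is not given. The partner on the other strand differed by 34.2 points.

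TERT encodes the catalytic subunit of telomerase, the enzyme that lengthens telomeres, and lies in the chr20 end. At an intronic position (chr20:71271939) young cultures had a lowest value of 18%, a median of 39.5% and a highest of 67%, and old cultures 0%, 3.50% and 25%. The ages overlapped, and the difference was 35.7 ± 14.8 points (SD), with 29 points at the partner. This CpG holds both of the calls in TERT.

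In RASA3, a GTPase-activating protein of the Ras family, an intronic position in the chr12 end (chr12:90976597) went from a median of 48.5% in young (30% to 75%) to 22% in old cultures (0% to 44%). The difference was 29.2 ± 19.7 points, but the partner on the other strand differed by only 0.333 points. In AKT1, a kinase of growth and survival signalling, an intronic position in the chr21 end (chr21:70892780) had a median of 39.0% in young (29% to 47%) and 22.5% in old cultures (0% to 38%), a difference of 18.0 ± 15.7 points. Its coverage was even in all cultures. The other 3 calls in AKT1 were higher in old, by 12 to 26.8 points, so no common direction holds for this gene.

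Both sites higher in old lay in the chr25 end. In MICALL2, which links Rab proteins to the actin cytoskeleton, the median at chr25:42025122 was 48.5% in young (33% to 56%) and 73.5% in old cultures (56% to 88%), a difference of -26.7 ± 14.9 points with 0.833 points at the partner. In ADAP1, a GTPase-activating protein of the Arf family, the median at chr25:42360535 was 58.0% in young (44% to 67%) and 72.0% in old cultures (60% to 80%), a difference of -13.8 ± 7.91 points. The adjusted value of the paired test was 0.889 at the TERT site and at each of these 4 sites, so none passed the adjustment.

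**Figure D5:**
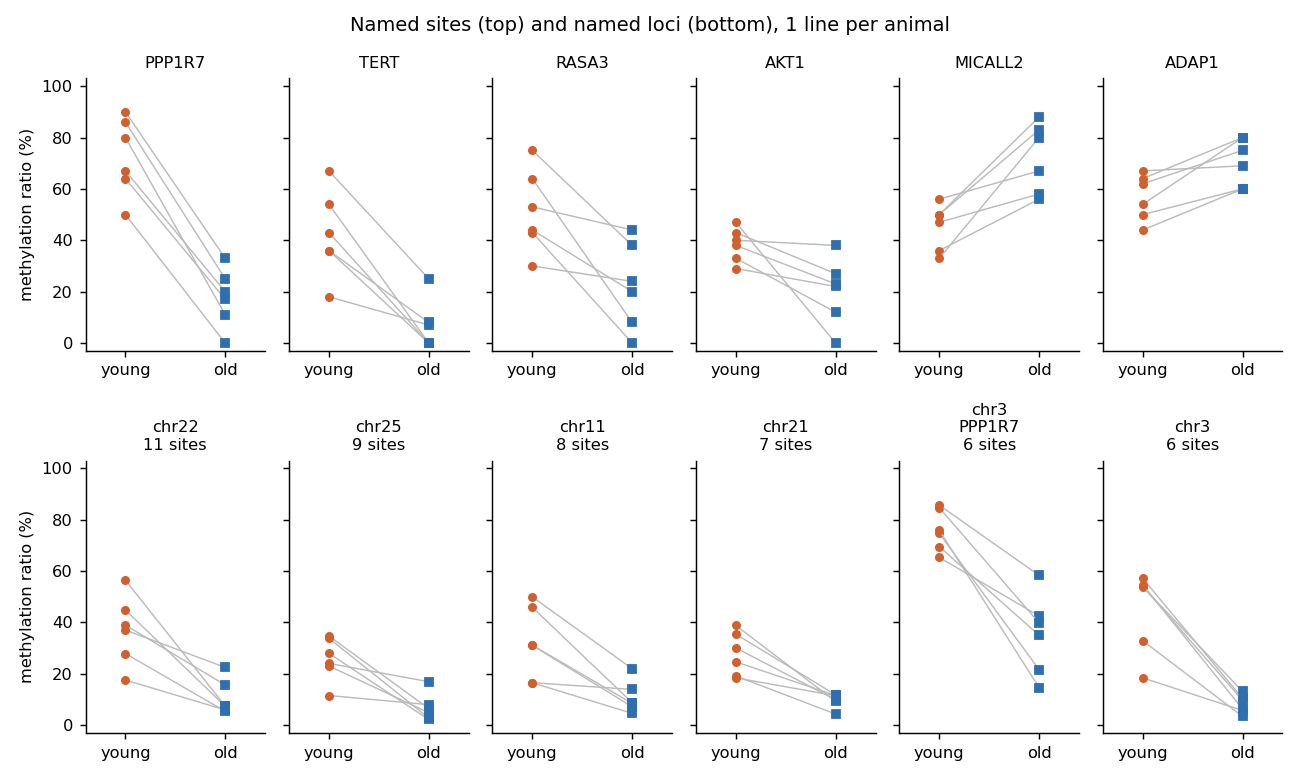
Methylation ratio in percent of each culture at the 6 named sites (top) and, as a mean over tested positions, in the 6 named loci (bottom), with a line joining the young and old culture of each animal. PPP1R7 parts the ages in both rows (50% to 90% against 0% to 33% at the site), and MICALL2 and ADAP1 are higher in the old culture of all 6 animals.

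Some further genes with at least 4 called end positions were chosen after their values were seen. MZF1, a zinc finger transcription factor in the chr18 end, had 6 calls higher in young and 1 higher in old. Of these, 5 lay in a stretch of 97 bp annotated as exon and CpG island, where the mean over 7 positions was 18.9% ± 10.1 in young and 2.48% ± 2.99 in old cultures. Young culture 4A was at 0% there, as were 3 old cultures, and the ages overlapped. CHCHD6, a subunit of the complex that shapes mitochondrial cristae, had 4 calls in the chr22 end, all higher in young by 13.8 to 28.0 points.

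Other genes moved in both directions. PRODH, which encodes proline dehydrogenase, the first enzyme of proline breakdown, had 21 calls in the chr17 end, 11 higher in young and 10 higher in old, some of which the list also assigned to neighbours such as PI4KA, a phosphatidylinositol kinase, and HIC2, a transcriptional repressor. PRKCA, the gene of protein kinase C alpha in the chr19 end, had 4 calls higher in young and 3 higher in old, from 32.5 to -41.2 points. BCL2, an inhibitor of apoptosis in the chr24 end, had 3 and 2. At the BCL2 promoter and exon call (chr24:62105038) young cultures had a lowest value of 30%, a median of 39.0% and a highest of 60%, and old cultures 0%, 16.0% and 50%, so the ages overlapped (21.5 ± 18.5 points).

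The chr29 end (chr29:50503135-51503135) starts beyond the called sites annotated to the imprinted genes KCNQ1, IGF2 and H19. It averaged 16.0% ± 0.663 in young and 15.5% ± 0.478 in old cultures. The young minus old difference was 0.478 points, against 0.594 points in the rest of chr29. This end held 29 calls higher in young and 6 higher in old. Called positions made up 1.76% of the end and 2.01% of the rest of chr29. Among the calls were 4 intronic ones in MOB2, a binding partner of NDR kinases, higher in young by 12.7 to 20.3 points. Another 3 lay in TALDO1, the transaldolase of the pentose phosphate pathway, higher in young by 24.0 to 39.7 points. Calls higher in old were annotated to PDDC1 (-24.7 points) and to PIDD1 and RPLP2 (-16.2 points). PDDC1 also had 1 call higher in young.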

How the data were processed

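RRBS data of 12 cultures from 6 heifers were used. The authors trimmed reads with Trim Galore 0.3.7, aligned them with Bismark 0.13.1 and kept unique alignments. Coordinates are given as bosTau8, as the submitters' processing notes name it, although the methods write it beside the name of another assembly, and without a genome this could not be checked. The methylation ratio deposited by the authors is a fraction with 2 decimals, reads with C over reads with C or T. Coverage was deposited as a raw count of reads per position and strand, with a minimum of 5 per culture. The authors' p-values and differences were not used, and a further deposited list served for annotation only. Positions are printed as the second coordinate of each row. Differences were paired by animal, with cultures of equal number in the sample titles taken as 1 heifer. The correlation of their deviations in the ends had a median of 0.0590 over 6 pairs (0.00385 to 0.0781). Between different animals the median was -0.00985 (-0.0406 to 0.0734). These ranges overlapped, so the pairing rests on the titles and the methods.

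Means over positions were compared by an exact permutation test that flips the signs of the 6 paired differences in all 64 ways (two-sided). Sites were called as in the methods (paired test, unadjusted P below 0.05) with a minimum difference of 0.10. Windows of 1 Mb, counted back from the last tested position, were fitted with limma 3.58.1 and the animal as a block. Dispersion in the quasi-binomial alternative was not allowed below 1. The site tests and the limma fit of windows were first run on simulated data, and the exact tests on fixed numbers with known answers. P-values weigh a mean difference against its variation among these 6 animals, or among the cultures where the pairing was dropped. They do not cover variation between repeat cultures of 1 animal and age, of which there were none.

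Members, lists and comparisons were chosen with earlier results of these data known. The ends described in full were the 5 highest and 5 lowest in methylation. Named sites were called positions annotated to a gene with 10 or more reads per culture and 1 direction in all animals, at most 5 per direction and 1 per gene. Named loci were the 6 with most calls among those of at least 4 calls, each at most 100 bp apart, in 1 direction. Classes of coverage and of mean ratio, the 10 Mb comparison, the windows of at least 500 positions and the fit without chr17 were added after seeing the data. Gene symbols come from the list of the authors, and all 85 were found in the RefSeq gene table of ARS-UCD2.0, of which no coordinates were used. DNA sequence is not shown, because no genome of the build was used here. Python 3.11.15 with numpy 2.4.6, pandas 2.3.3 and scipy 1.17.1, and R 4.3.3 were used.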

Additional observations from a re-analysis of the deposited data

Results flagged for a closer look

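Each group of 6 cultures was searched for a culture far from the others by Dixon's gap ratio at its 95% limit over the mean of the ends and of the rest, each of the 29 ends, the named sites and the named loci. Of 86 groups 3 were flagged, and chance flags about 1 in 20. In the chr29 end, old culture 5B had a mean ratio of 16.4%, above the next old culture at 15.5%. At the TERT site old culture 6B had 25.0%, while the next old culture had 8%. In the chr21 locus of 7 calls, old culture 2B had 4.33%, below the next at 9.25%. The values of the remaining cultures are in the ranges given for the TERT site and the chr21 locus.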

How the results depend on the processing

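End minus rest in mean methylation turned its sign under 5 settings: -15.4 points with at least 10 reads in every culture, -5.55 with pooled reads, -0.208 without positions even in all cultures, -0.212 within classes of local CpG density and -0.968 against the 10 Mb before the ends. The young minus old difference in the ends (0.884 points) kept its sign in all 16 alternatives. Its excess over the rest (0.462) kept its sign in all 19, but its exact P was above 0.05 with at least 10 reads (0.484), pooled reads (0.986), ends of 500000 bp (0.418), no even positions (0.503), density classes (0.353), mean ratio classes (0.407), the 10 Mb before the ends (0.303) and no pairing or replicate block (0.462, exact P = 0.065). With 1 animal left out the exact test cannot fall below 0.0625, and the values ran from 2.37 to 2.57, from 0.697 to 1.02 and from 0.379 to 0.549 points. The 815 calls were 2.62% of end positions, against 1.62% of the rest. They became 118 with at least 10 reads (1.72% and 1.02%) and 224 with a minimum difference of 0.25 (0.719% and 0.381%). In ends of 500000 bp they were 417 (2.53% and 1.64%), in ends of 2000000 bp 1459 (2.59% and 1.58%), and after adjustment 0. Without 1 animal they were 715 to 837 (2.30% to 2.69%, and 1.46% to 1.66% of the rest). Without pairing they were 918 (2.95% and 1.84%), with limma 981 (3.15% and 1.86%) and with the quasi-binomial model 690 (2.22% and 1.19%). The young share of 73.5% (66.4% in the rest) rose to 82.2% with at least 10 reads (66.7% in the rest). With a minimum difference of 0.25 it was 83.5%, and 76.0% in the rest. Without 1 animal it ran from 68.6% to 73.4%, and in the rest from 61.5% to 67.9%. Without the replicate block 2 ends (chr21 and chr22) and with at least 10 reads 1 end (chr22) had an adjusted P below 0.05, against 0 in the other 8 alternatives. The density ratio of 3.49 became 2.32 with at least 10 reads, 3.66 in ends of 500000 bp, 3.24 in ends of 2000000 bp, 2.97 as a median over chromosomes and 3.39 with strands kept apart. The cause of these changes was not tested beyond the coverage and density classes given above. Depth limits single ratios: at a median of about 13 reads a ratio moves in steps of several points.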

Other observations

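The X chromosome was left out of the rule. Its last 1 Mb held 123 tested positions with a mean ratio of 20.1%, against 41.3% over the other 22100 positions of X. The young minus old difference there was 1.12 ± 2.70 points (SD, n = 6 animals), and 0 of the 123 positions were called, against 2.83% of the other X positions.

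Within the ends the last 100 kb had a mean ratio of 31.7% and the 100 kb before it 20.4%, and the other 100 kb steps lay between 21.2% and 29.8%. The young minus old difference lay between 0.653 and 1.22 points over the 10 steps and was positive in 6 of 6 animals in 5 of them.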
